A study of Gallus gallus with 4 samples.

Results

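Transient cartilage (TC) of the chicken tibia was compared between embryonic day 12 (E12, Hamburger-Hamilton stage 38) and embryonic day 14 (E14, stage 40). The arrays were chosen by their labels, which name transient cartilage at each stage. These are 2 of the 4 arrays, and the comparison spans 7805 of the 13009 genes named on them. All tissue came from white leghorn embryos of eggs kept at 38 °C, and no group carried a mutation or a treatment. Pieces from many tibiae were pooled for each sample, with the number of embryos not given in the sources used here, and 5 µg of total RNA per sample went to the arrays. The other 2 arrays hold articular cartilage dissected together with some transient cartilage (TC+AC) at the same stages. Each combination of tissue and stage was 1 array, so there is no replicate error and no test: all values below are differences between single arrays, and "2-fold" marks a size, not a call of significance.

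Transient cartilage is the template of the long bones. Its chondrocytes lay down collagen II, the sulfated proteoglycan aggrecan and proteins that link them, then enlarge (hypertrophy), make collagen X and mineralize their matrix before vessels and osteoblasts replace it. SOX9 with SOX5 and SOX6 drives the early matrix genes, RUNX2 and MEF2 factors the hypertrophic ones, and Indian hedgehog (IHH) with parathyroid hormone-related protein (PTHLH) sets the pace between these states.

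The array of TC at E14 stood apart from the other 3. Log2 levels correlated across genes at r = 0.87 between the TC arrays, 0.93 between the E12 arrays of the 2 tissues, 0.92 between the TC+AC arrays and 0.77 between the E14 arrays; genes are not independent replicates. Of the genes compared, 30.3% had their highest of the 4 values in TC at E14 and 38.6% their lowest. For TC+AC at E14 these shares were 27.6% and 30.0%. They were 20.3% and 14.9% for TC at E12, and 21.8% and 16.5% for TC+AC at E12. The 3' over 5' intensity ratio of beta-actin, which grows as RNA degrades, was 3.26 in TC at E12 and 1.99 in TC at E14, against 4.01 and 7.48 in TC+AC at these stages. The TC stages were closer by the other control genes. The ratio for EF1A was 1.64 and 1.45 in TC, and 1.54 and 3.97 in TC+AC. For GAPDH it was 1.55 and 1.515 in TC, and 1.18 and 1.59 in TC+AC. The part of RNA quality in the differences was not tested. Cartilage markers such as COL2A1, ACAN and SOX9 were above background on both TC arrays. So were bone and muscle genes given below such as IBSP and MYH1B, though not all of the muscle genes. In bulk tissue, fewer cells of a type and less RNA per cell cannot be told apart.

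At E14, TC had 648 genes at least 2-fold higher than at E12 (8.30% of 7805) and 1102 at least 2-fold lower (14.1%). At least 4-fold higher were 109 genes (1.40%), and 124 were at least 4-fold lower (1.59%). The median log2 difference over all genes, E14 minus E12, was -0.13. A gene at the 5th percentile stood at -1.50 and one at the 95th at 1.28. The balance of higher and lower depends on the scale: with the arrays scaled on their spiked hybridization controls in place of quantile normalization, 1708 genes were 2-fold higher and 366 lower, and the all-gene median was 0.39. Group values are therefore read against the median of all genes. Below, a pair of intensities gives E12 and then E14, and a value in brackets after a gene is its log2 difference, E14 minus E12, in TC unless TC+AC is named. A second probe set above background existed for 398 of the higher genes and 490 of the lower ones. It had the same sign for 85.7% and 81.0% of them, and was itself 2-fold in that direction for 51.0% and 37.6%, against 18.1% and 10.7% of all second probe sets. The balance of higher and lower thus also depends on the probe set. With the second brightest probe set of each gene, the all-gene median was 0.088.

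**Figure D1:**
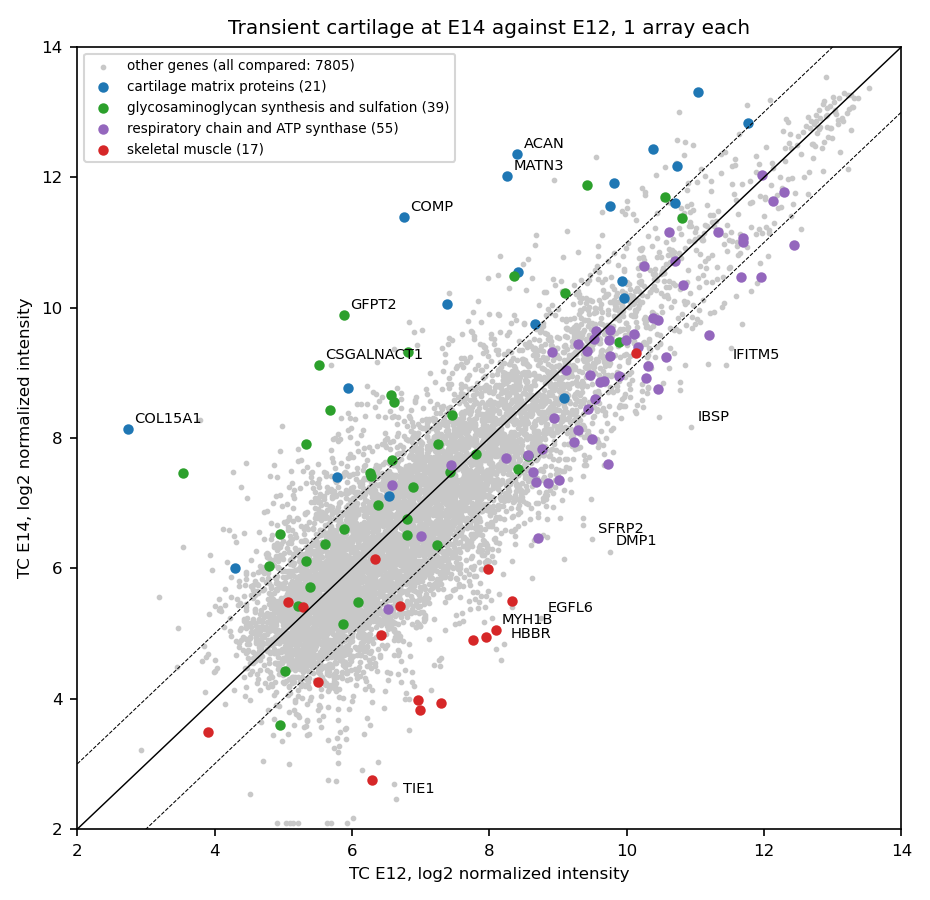
Log2 normalized intensity of 7805 genes in TC at E14 (vertical axis) against TC at E12 (horizontal axis), 1 array each; the solid line marks equal values, the dashed lines 2-fold. Points of the cartilage matrix list lie mostly above the upper dashed line, those of skeletal muscle mostly below the lower one.

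Cartilage matrix proteins had the highest median difference of the 33 gene lists under this normalization. The matrix protein list had 32 entries, 25 of them on the array, and 21 passed the filter on dim genes. Of these, 16 were at least 2-fold higher at E14 and 0 lower, beside 8.30% and 14.1% of all genes. Their median log2 difference was 1.80 against -0.13 over all genes. Their summed intensity was 16599 at E12 and 57126 at E14.

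COMP, cartilage oligomeric matrix protein, a pentamer that binds collagens, led all genes measured on both arrays. It read 108 at E12 and 2682 at E14 in TC, and 114 and 233 in TC+AC. TC at E14 was far above the other 3 arrays, and 24.8-fold above TC at E12. The second probe set of COMP had a log2 difference of 5.54 in TC. MATN3, the adaptor protein matrilin-3, lay at 307 and 4146 in TC at E12 and E14, and at 168 and 826 in TC+AC. Both tissues were higher at E14, and its second probe set gave 3.81 in TC beside 3.75 for the first. ACAN, which encodes aggrecan, had intensities of 339.9 and 5234 in TC and 230.4 and 641 in TC+AC. Its TC difference was 15.4-fold, while its other, much dimmer probe set had a log2 difference of -0.20.

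Other proteins of this list ranged from SNORC, a small chondroitin sulfate proteoglycan, to MATN1. SNORC lay at 167 and 1064 in TC (log2 difference 2.68), and CHADL, a chondroadherin-like protein, at 61.2 and 438 (2.84). Chondromodulin, named LECT1 here and known to keep vessels out of cartilage, lay at 2112 and 10145 (2.26). MGP, an inhibitor of mineralization, lay at 1340.2 and 5521 in TC but at 2549 and 2447 in TC+AC, where the stages were nearly level. The secreted WNT antagonist FRZB had 866 at E12 and 3010.4 at E14, matrilin-1 (MATN1) 1697 and 4637, and the link protein HAPLN1 3489.7 and 7268. COL15A1, a collagen of basement membrane zones, reached 281 in TC at E14 from a value below background for its brightest probe set, and its other probe sets, measured on both arrays, gave log2 differences of 2.48 and 3.25.

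The cartilage collagens had the same direction, with counts read beside 8.30% of all genes 2-fold higher in TC at E14 and 14.1% lower. Of 6 measured, 5 were 2-fold higher at E14 and 0 lower, with a median of 1.23; with arrays centred on their medians 2 of them were 2-fold higher and the median was 0.77. On the second brightest probe sets, which 5 of these genes had, all 5 were 2-fold higher with a median of 3.56. COL2A1, the chain of collagen II, had 3182 and 6527 in TC and 2916 and 5475 in TC+AC, close to 2-fold in both tissues. Its dimmer probe sets gave log2 differences of 2.78, 0.36 and -0.73 in TC. COL9A3, a chain of the collagen IX that coats these fibrils, lay at 1731 and 8174, and COL9A1 at 4371 and 9355. COL11A1, which nucleates the fibril core, lay at 3468 and 8855. COL27A1, a fibrillar collagen of growth plate cartilage, had the widest difference by the brightest probe sets, from 408 to 1997 (4.89-fold). By the second probe sets, COL9A1 had 3.95 in TC, COL27A1 3.58 and COL9A3 3.56. Of 6 small leucine-rich proteoglycans measured, which cover fibril surfaces, 2 were 2-fold higher. These were EPYC, epiphycan of growth cartilage (900.1 and 3868 in TC, 298 and 1398 in TC+AC), and FMOD, fibromodulin (105 and 411 in TC).

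**Figure D2:**
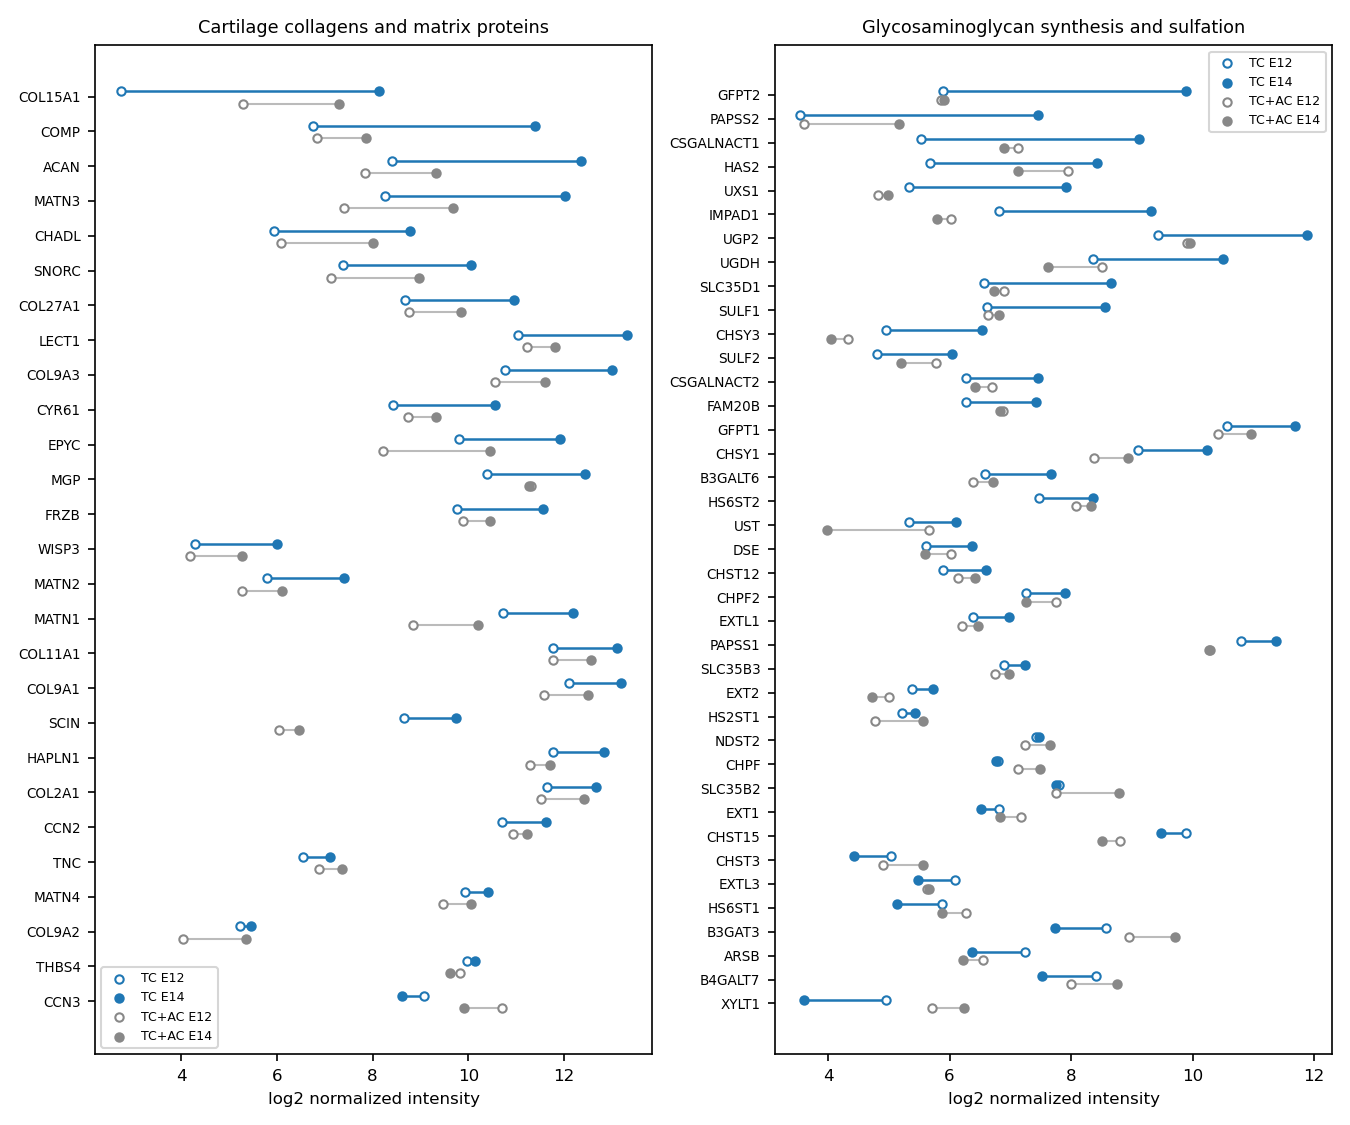
Log2 normalized intensity of the compared members of the cartilage collagen and matrix protein lists (left) and of the glycosaminoglycan list (right); blue joins TC at E12 (open) to E14 (filled), grey the same stages of TC+AC, 1 array each, with the brightest probe set of each gene. After quantile normalization many matrix genes are higher at E14 in both tissues, whereas most glycosaminoglycan enzymes that are 2-fold higher in TC are nearly level or lower in TC+AC.

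Enzymes that build and sulfate glycosaminoglycans, the sugar chains of aggrecan, were higher at E14 as a group. Of 39 members compared (49 listed, 47 on the array), 17 were 2-fold higher at E14 and 1 was lower, with a median of 0.76. Of all genes, 8.30% were 2-fold higher in TC and 14.1% lower. In TC+AC the same 39 had 2 higher and 1 lower and a median of 0.04, beside 4.71% and 7.92% of all genes 2-fold higher and lower there. TC at E14 held the highest of the 4 values for 26 of the 39, against 30.3% of all genes.

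The higher members spanned several steps of chain synthesis. At the start of the hexosamine pathway, GFPT2 had 59.1 in TC at E12, 947 in TC at E14, 58.0 in TC+AC at E12 and 60.2 in TC+AC at E14. By this probe set TC at E14 alone was high. The second one, above background on all 4 arrays, was higher at E14 in both tissues, with log2 differences of 1.25 in TC and 1.29 in TC+AC. UGP2, which makes UDP-glucose, lay at 687 and 3762 in TC and 964 and 992 in TC+AC. UGDH, which oxidizes it to UDP-glucuronate, lay at 327 and 1441 in TC but 364 and 198 in TC+AC, where E14 was the lower stage. UXS1 turns that product into UDP-xylose, the first sugar of the linker, and lay at 40.4 and 241 in TC. The transporter SLC35D1, which carries UDP-sugars into the endoplasmic reticulum, lay at 94.9 and 405.

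Among the chain builders, CSGALNACT1 adds the sugar that commits the linker to chondroitin sulfate. It had 46.0 and 554 in TC (log2 difference 3.59) against 140.0 and 119 in TC+AC, and its second probe set gave 2.83 in TC. CHSY1, which polymerizes the chain, had 551 and 1199.6. PAPSS2, which makes the sulfate donor and whose loss causes a skeletal dysplasia in humans, reached 176 in TC at E14 from below background by its brightest probe set, at least 9.32-fold higher. Its second probe set went the other way, at -0.46, so its direction depends on the probe set. IMPAD1, the phosphatase that clears the by-product of sulfation, had 113 and 639. HAS2, which makes the hyaluronan that aggrecan binds, had 51.4 and 345 in TC and 248 and 139 in TC+AC. The 1 member counted as lower was XYLT1, a xylosyltransferase that starts the linker, with 31.0 at E12 and a value below background at E14. With background in its place the fold is 1.99, and the second probe set (0.12) and the mean of all (0.43) have the opposite sign. Of the 39 members, 28 lay above 0 in TC and 11 below. Lower by less than 2-fold were B4GALT7 (-0.89), ARSB (-0.87) and B3GAT3 (-0.84). In TC+AC these gave 0.75, -0.33 and 0.75.

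Genes that modify and fold collagen shared the direction. Of 24 collagen modification genes compared, 10 were 2-fold higher in TC at E14 and 2 lower, with a median of 0.94, against 0.27 in TC+AC. PLOD2, a lysyl hydroxylase that directs crosslinks, lay at 412 and 2208, and P4HA1, a subunit of prolyl 4-hydroxylase, at 1003 and 2759.8. The collagen chaperone SERPINH1 lay at 1122 and 2591, and PCOLCE2, an enhancer of procollagen cleavage, at 119 and 794. The 2 lower members were the crosslinking oxidases LOXL1 (log2 difference -1.33) and LOXL4 (-2.04). General endoplasmic reticulum genes differed less, with 4 of 42 2-fold higher, 1 lower and a median of 0.29. Of all genes, 8.30% were 2-fold higher and 14.1% lower, so the higher count was near that share. The chaperone HSPA5 had 976 and 2872 in TC and 1035 and 481 in TC+AC, opposite in direction. HSP90B1 gave 1.61 and PDIA6 1.32 in TC, whereas CALR, calreticulin, gave -1.14.

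Transcription factors of the chondrocyte program were mostly higher at E14, with some members lower. Of 18 compared, 13 were above 0 and 5 below. At least 2-fold higher were 4 and lower 2, beside 8.30% and 14.1% of all genes. The median was 0.68 against -0.13 for all genes. SOX9 had 86.7 in TC at E12, 398 in TC at E14, 105 in TC+AC at E12 and 154 in TC+AC at E14, highest in TC at E14. SOX5 had 123 and 686 in TC, and its 2 brightest probe sets gave 2.48 and 2.46. SOX6 did not pass the filter on dim genes; it was below background in TC at E12 and 58.1 at E14. TRPS1, a GATA-type repressor needed for growth plates, had 31.0 and 224, and CREB3L2, which drives secretory genes in chondrocytes, 802 and 2225. The lower factors were MEF2D (-2.09) and MAF (-1.52). RUNX2 had 337 and 482 in TC, a difference of 0.52 that stayed under 2-fold.

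Hypertrophic genes pointed in both directions. Of 16 compared, 5 were 2-fold higher at E14 and 4 lower, beside 8.30% and 14.1% of all genes, with a median of 0.57. COL10A1, collagen X of hypertrophic chondrocytes, had 1895 and 3876 in TC and 151 and 318 in TC+AC. It was about 2-fold higher at E14 in both tissues, at a far lower level in TC+AC. BMP6, a ligand made by hypertrophic chondrocytes, had 74.3 and 446 in TC, and MMP13, the collagenase of terminal cartilage, 192 and 457. The matrix lectin CLEC3A had 228 and 1098, and scinderin (SCIN), an actin-severing protein, a log2 difference of 1.09. IHH has 1 probe set, which was below background on both TC arrays and on both TC+AC arrays, so its level cannot be read here. PTHLH lay below background at E12 and at 38.0 at E14, and neither passed the filter on dim genes. The 4 lower members were IBSP, SPP1, LOXL4 and ADAMTSL1.

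Bone matrix genes lay lower at E14 as a group. Of 21 osteoblast and mineralization genes compared (28 listed), 10 were 2-fold lower and 3 higher in TC, beside 14.1% and 8.30% of all genes. The list median was -0.73 in TC and -0.09 in TC+AC, against -0.13 and -0.046 for all genes. DMP1, an acidic phosphoprotein of mineralized matrix, had 862 in TC at E12, 76.6 in TC at E14, 88.9 in TC+AC at E12 and 58.2 in TC+AC at E14. TC at E12 alone was high, 11.3-fold above TC at E14. IBSP, bone sialoprotein, had 1963 and 288 in TC, and IFITM5, a membrane protein of osteoblasts, 2789 and 558. BGLAP, osteocalcin, had 282 and 48.7, and SPP1, osteopontin, 808 and 351 in TC and 87.0 and 32.9 in TC+AC. The mineralization phosphatase PHOSPHO1 (-1.36), the peptidase PHEX (-1.33), the glycoprotein SPARC (-1.26) and the factor DLX5 (-1.01) were lower too.

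Not all genes of that list followed. Collagen I, the main collagen of bone and fibrous tissue, was nearly level, with COL1A1 at 11884 and 10629 and COL1A2 at 9949.7 and 8617. The 3 higher members were ANXA5, a calcium-binding annexin of matrix vesicles (1032 and 3200.0), the sphingomyelinase SMPD3 (2178 and 4472) and the citrate transporter SLC13A5 (453 and 949). On the scale of the hybridization controls the list had 5 higher and 4 lower and a median of -0.21, still below the all-gene median of 0.39.

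**Figure D3:**
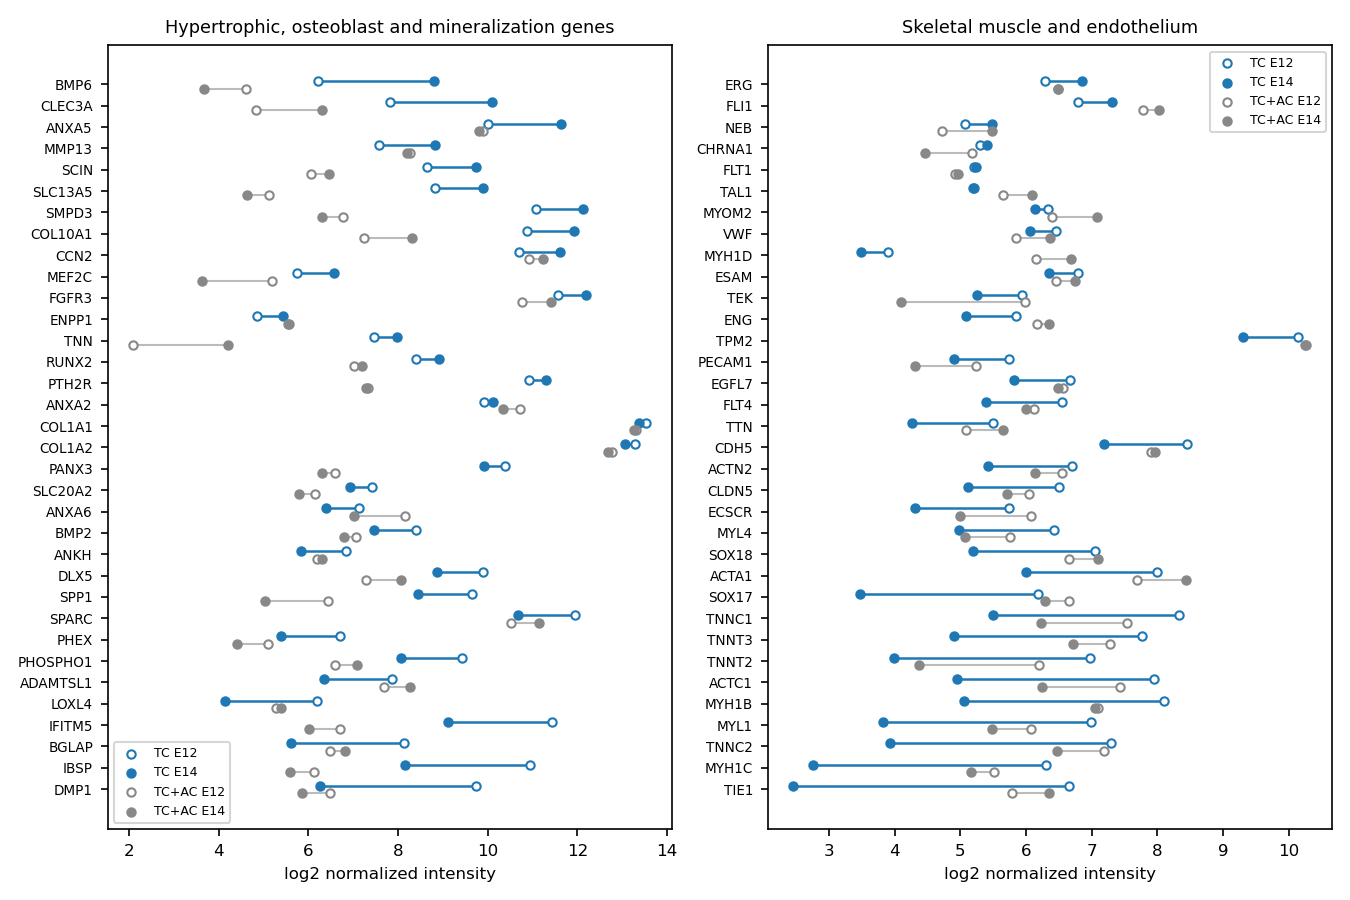
Log2 normalized intensity of hypertrophic, osteoblast and mineralization genes (left) and of skeletal muscle and endothelial genes (right) in TC (blue) and TC+AC (grey) at E12 (open) and E14 (filled), 1 array each. DMP1, IBSP, BGLAP and IFITM5 are lower in TC at E14, COL1A1 and COL1A2 are nearly level, and most muscle genes are lower.

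Markers of several other cell types were also lower in TC at E14, together with the bone genes. Over all genes, 14.1% were 2-fold lower and 8.30% higher. Of 17 skeletal muscle genes compared (43 on the array), 12 were 2-fold lower and 0 higher, with a median of -1.99. Without the filter on dim genes, 23 of 43 were lower and the median was -1.28. For genes above background on both TC arrays the median was -1.36, and on the second probe sets of 10 genes -0.72. The list summed to 3924 at E12 and 1439 at E14 in TC, against 3249 and 2903 in TC+AC, and 17 and then 24 of the 43 lay below background in TC. The TC sum at E14 was the lowest of the 4. MYH1B, a myosin heavy chain, had 273 and 33.1 in TC, and ACTC1, a sarcomeric actin, 247 and 30.9. The troponins TNNT2, TNNT3 and TNNC1 were 7.91-fold, 7.31-fold and 7.11-fold lower. Troponin C2 (TNNC2) was below background at E14 and at least 10.1-fold lower.

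Vessel and blood markers had the same direction. Of 17 endothelial genes, 7 were 2-fold lower and 0 higher (median -0.84), with a summed intensity of 1768 at E12 and 1038 at E14, against 1623 and 1647 in TC+AC. On the second probe sets of 7 genes, 1 was lower and the median was -0.12. TIE1, an endothelial receptor, was below background at E14 by its brightest probe set, and its second, measured on both TC arrays, gave -0.72. The vascular cadherin CDH5 had 349 and 146. Of 14 erythroid genes, 8 were lower and 1 higher (median -1.09), with sums of 19516 and 11323 in TC and 20553 and 20056 in TC+AC. The globin HBBR had 297 and 28.6, and the 1 higher member, carbonic anhydrase CA2, which is not limited to blood, had 170.4 and 1202. Of 20 leukocyte and osteoclast genes, 7 were lower and 0 higher (median -0.86), among them the protease CTSK (-1.20) and the macrophage receptor CSF1R (-1.28). Without the filter on dim genes the leukocyte median was -0.32. Of 8 epidermal genes, 4 were lower and 0 higher (median -0.90, or -0.087 without that filter). Among the 4, KRT13 entered the list through a synonym match. The nerve list depended on the filter: 1 of 8 was lower, and its median of -0.13 was that of all genes. Without the filter, 5 of 18 were lower and 1 higher, with a median of -0.50 against -0.058 for all genes. On the second probe sets of 2 nerve genes the median was 0.041. The part of other cell types in the lower values of bone, signalling and metabolic genes was not tested.

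**Figure D4:**
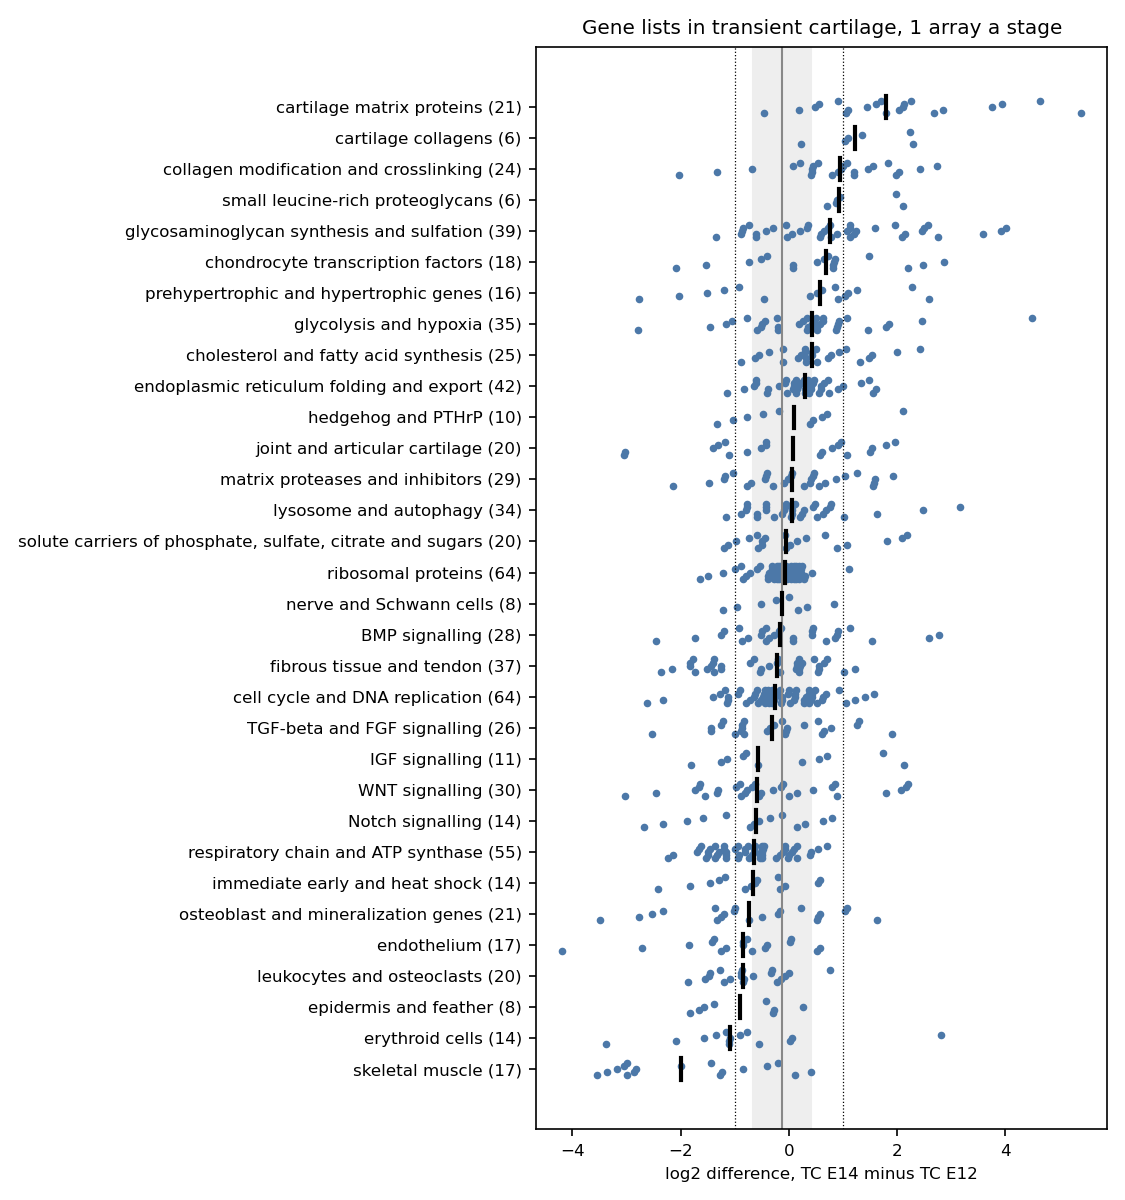
Log2 difference between TC at E14 and TC at E12 for each compared member (points) of 32 gene lists, with the list median (bar) and the number of members in brackets; the grey line and band are the median and quartiles of all 7805 genes, dotted lines mark 2-fold, and values are as measured, also below background. Cartilage matrix proteins stand at the top with a median of 1.80 and skeletal muscle at the bottom with -1.99.

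Fibrous and joint genes completed the tissue lists, with counts read beside 8.30% of all genes 2-fold higher and 14.1% lower. Of 37 fibrous tissue and tendon genes, 13 were 2-fold lower and 2 higher, with a median of -0.22, which is 0.084 under that of all genes. As deposited, median-centred or on the hybridization controls, the list lay 0.34 under all genes. The lower ones included SCX (-1.51), the transcription factor of tendon, and its target TNMD, tenomodulin (-1.40). The mesenchymal factor TWIST1 (-1.74) and elastin, ELN (-2.16), were lower too. The 2 higher ones were MKX (1.23) and FAP (1.03), and 16 of the 37 lay above 0. Of 20 joint and articular cartilage genes, 5 were higher and 6 lower, with a median of 0.078. This was 0.21 above that of all genes, but every other scaling put the list below all genes. It stood at -0.24 relative to them as deposited, median-centred or on the hybridization controls. With quantile normalization over the TC arrays only it stood at -0.28. SFRP2, a secreted modulator of WNT signals, had 720.0 and 87.6 in TC and 653 and 549 in TC+AC. It was 8.22-fold lower at E14 in TC, while FRZB of the same family was the higher one.

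Signalling genes showed no common direction within most pathways. Over all genes, 8.30% were 2-fold higher in TC at E14 and 14.1% lower, and the counts of each pathway stand beside these shares. The WNT list had 4 higher and 8 lower of 30, with a median of -0.59. On the second probe sets of 17 genes, 4 were higher and 4 lower, and the median was 0.22. AXIN2, a feedback target of beta-catenin, had 117 in TC at E12, 21.4 in TC at E14, 54.3 in TC+AC at E12 and 90.9 in TC+AC at E14. TC at E14 was the lowest of the 4 and 5.49-fold below TC at E12. The ligand WNT5A had 894 and 283 in TC. Higher at E14 were the ligand WNT11 (2.21), the secreted inhibitor WIF1 (2.16), the receptor FZD9 (2.08) and FRZB (1.80).

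The BMP list had 4 higher and 4 lower of 28, with a median of -0.16 against -0.13 for all genes. ID1, a target gene of BMP signalling, had 768 and 232 in TC and 1154 and 1653 in TC+AC, lower at E14 in TC alone. The activin antagonist FST had a log2 difference of -2.45, the ligand BMP4 -1.20 and the inhibitory SMAD7 -1.26, while the antagonist NOG, noggin, was higher (1.53). CHRDL1, another antagonist, was dim at E12, below background, and higher by at least 4.24-fold at E14. In the TGF-beta and FGF list, 3 of 26 were higher and 5 lower, with a median of -0.32. The FGF feedback genes SPRY2 (-1.43), DUSP6 (-1.43) and ETV5 (-1.22) were among the lower ones, and the decoy-like receptor FGFRL1 (1.91) among the higher.

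Of 14 Notch genes compared, 5 were lower and 0 higher, with a median of -0.60. DLK1, an atypical ligand, had 146 and 22.8 in TC and 118 and 30.2 in TC+AC, lower at E14 in both tissues. The target HES4 (-2.32), the receptor NOTCH1 (-1.87) and the modifier LFNG (-1.59) were also lower in TC. Of 10 hedgehog and PTHrP genes, GLI2, a transcriptional effector, was higher (2.11), and the signal transducer SMO (-1.33) and the inhibitor HHIP (-1.04) were lower. The second probe sets of GLI2 and HHIP had the opposite sign, at -0.54 and 0.23. Of 11 IGF genes, the receptor IGF1R (1.74) and the adaptor IRS4 (2.12) were higher and the binding protein IGFBP2 (-1.81) was among the 3 lower.

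Metabolic lists parted. Their counts stand beside 8.30% of all genes 2-fold higher in TC at E14 and 14.1% lower. Of 35 glycolysis and hypoxia genes, 6 were 2-fold higher and 4 lower, with a median of 0.42. LDHA, which turns pyruvate into lactate, had 1695 in TC at E12, 6118 in TC at E14, 1981 in TC+AC at E12 and 1481 in TC+AC at E14, highest in TC at E14. The lactate exporter SLC16A3 had 67.2 and 369 in TC, and HIF1A, the oxygen-regulated factor that chondrocytes need, 220.3 and 759, with 2.03 from its second probe set. CA12, a membrane carbonic anhydrase, reached 310.2 at E14. Its brightest probe set was below background at E12, and the other, measured on both arrays, gave a log2 difference of 4.12. The hypoxia-induced peptide gene ADM, 1 of the 4 lower members, was below background at E14. The other lower members were ARNT (-1.45, and -1.77 by its second probe set), PFKL (-1.15) and ALDOC (-1.05). VEGFA, which did not pass the filter on dim genes, was below background at E14 as well.

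Respiratory chain genes were lower at E14. Of 55 compared (76 listed, 58 on the array), 19 were 2-fold lower and 0 higher; the TC median was -0.64, the TC+AC median -0.07. TC at E14 held the lowest of the 4 values for 40 of the 55, against 38.6% of all genes. The summed intensity was 73790 and 48015 in TC and 78721 and 77198 in TC+AC. Complex I subunits NDUFA13 (418 and 88.9 in TC) and NDUFAB1 (852 and 193) and the complex IV subunit COX8A (518 and 164) were among the lowest. UQCRB of complex III had the highest difference of the list, at 0.70. With hybridization-control scaling the list had 1 higher and 9 lower and a median of -0.30, against 0.39 for all genes.

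The counts of the next lists stand beside 8.30% of all genes 2-fold higher in TC at E14 and 14.1% lower. Of 25 cholesterol and fatty acid synthesis genes, 6 were higher and 0 lower, with a median of 0.42. FADS2, a fatty acid desaturase, had 38.1 and 203, INSIG1, a sterol sensor, 98.2 and 393, and the fatty acid synthase FASN 307 and 764. Of 34 lysosome and autophagy genes, 4 were higher and 1 lower. TFEB, the transcription factor of lysosomal genes, had 22.1 and 197, while the list median was 0.055. Of 20 solute carriers, 4 were higher, among them the zinc carrier SLC39A8 (1.80) and the bicarbonate carrier SLC4A7 (2.18), and 2 lower. Ribosomal protein genes differed little, with 1 of 64 higher, 4 lower and a median of -0.077.

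Of 64 cell cycle and replication genes, 4 were higher and 8 lower, beside 8.30% and 14.1% of all genes. Their median was -0.26 against -0.13 for all genes, and 0.43 on the second probe sets of 29 genes. MKI67, the proliferation antigen, had 209 and 432 in TC, and FEN1, a replication nuclease, 118 and 19.1. Of 14 immediate early and heat shock genes, which respond to handling and stress, 5 were lower and 0 higher, with a median of -0.66. KLF2 (-2.41) and EGR1 (-1.83) were furthest from 0. Of 29 proteases and inhibitors, 6 were higher and 5 lower. The inhibitors TIMP3 (1.57), TIMP4 (1.58) and RECK (1.56) and the membrane protease MMP16 (1.92) stood beside MMP13 on the higher side, and SERPINF1 (-2.14), an inhibitor of vessel growth, on the lower. Of the common reference genes, GAPDH had 7421 and 8926, and ACTB a difference of -0.83.

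Several of the widest differences lay outside the lists. F13A1, the transglutaminase subunit of factor XIII, had 494 and 3966 in TC, with 4.15 and 2.29 from its other probe sets, and the arylsulfatase gene ARSH had 51.8 and 558. EPS8L2, an actin-linked protein of the EPS8 family, lay 9.23-fold higher, and BAIAP2L1, a membrane-bending adaptor, 7.71-fold. FAM180A was 7.25-fold and OIT3 9.29-fold higher, though both OIT3 values of its second probe set were below background. On the lower side, BHMT2, a homocysteine methyltransferase, had 288 and 24.2, and EGFL6, a secreted protein with EGF repeats, 433 and 37.7. CRABP1, which binds retinoic acid, had 545 and 70.8. LSP1P1, LOC424577, the ribosomal RNA transcription factor UBTF and OCM3, of the parvalbumin family, were between 7.11-fold and 10.1-fold lower. Among genes below background on 1 array, CR1, LUC7L3 and MYBL1 were at least 3.92-fold to 5.17-fold higher by their brightest probe sets. LPXN has no settled direction: its brightest probe set was at least 3.63-fold higher, and its others gave -2.68 and -0.97. KRT24, LBP, CALML3, PPM1D and CH25H were at least 5.05-fold to 7.30-fold lower by theirs.

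Genes of the W chromosome were mostly higher at E14. In birds females are ZW and males ZZ, so W-linked RNA marks female tissue. Of 8 genes that the RefSeq table places on W, 5 were 2-fold higher in TC at E14, beside 8.30% of all genes. Their median was 1.30. HINTW, a W-linked gene with many copies, had 1237 in TC at E12, 3489.7 in TC at E14, 1735 in TC+AC at E12 and 3779 in TC+AC at E14. Both E14 arrays were above both E12 arrays. UBE2R2L (1.52), HNRNPKL (1.35), LOC430910 (1.75) and LOC107049459 (1.26) were higher in TC as well, and NEDD4L, MBD2 and LOC425347 were under 2-fold and lower. The 338 genes on Z had a median of -0.12, and the 7398 on numbered chromosomes -0.13. Some W genes have similar copies on Z, which a probe set may not separate.

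The TC+AC arrays give the same stages in tissue that includes the joint surface; they share no array with the TC comparison, but all 4 were normalized together. There, 368 genes were 2-fold higher at E14 (4.71%) and 618 lower (7.92%). The stage differences of the tissues were hardly correlated across genes (Pearson r = 0.070, Spearman rho = 0.032, 7805 genes within 4 arrays). Of the genes 2-fold higher in TC, 70 were also 2-fold higher in TC+AC, which is 10.8% of the TC genes and 19.0% of the TC+AC genes. Of the lower genes, 116 were shared, 10.5% and 18.8%. These shares depend on the scaling. On the values as deposited, where the TC+AC median over all genes was -1.34, 0.533% of the TC genes were shared on the higher side and 73.2% on the lower. The 109 genes at least 4-fold higher in TC had a median of 0.53 in TC+AC, with 79 above 0. The 124 at least 4-fold lower had a median of -0.048 there, with 67 below 0. Over all genes the TC+AC median after quantile normalization was -0.046, so the lower genes stood near that of all genes.

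Matrix genes were among those higher in both tissues. In TC+AC, 9 of the 21 matrix proteins were 2-fold higher and 0 lower, with a median of 0.60, and the collagens had 3 of 6 higher. Of all genes there, 4.71% were 2-fold higher and 7.92% lower. As deposited the TC+AC median of the matrix proteins was -0.39, which is 0.95 above that of all genes, against 0.64 above it after quantile normalization. EPYC, MATN3, SNORC and CHADL were at least 2-fold higher at E14 in both tissues, with TC+AC differences of 2.23, 2.29, 1.85 and 1.93. By their brightest probe sets, the glycosaminoglycan enzymes CSGALNACT1 (-0.23), UXS1 (0.16) and GFPT2 (0.054) were nearly level in TC+AC, while the second probe sets of CSGALNACT1 and GFPT2 gave 0.61 and 1.29 there. SOX9 (0.55) was under 2-fold. The difference between the tissues has 1 array behind each value and was not tested. The higher background of TC+AC at E14 (24.6, against 15.6 to 19.1 on the others) limits what dim genes can show there.

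**Figure D5:**
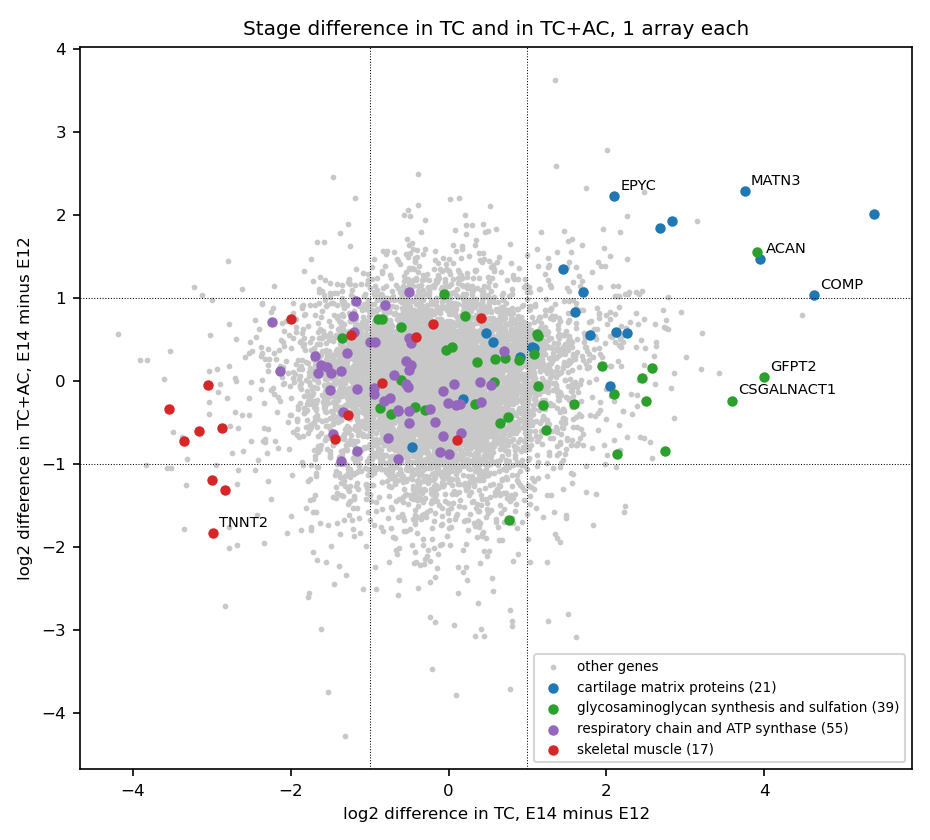
Log2 difference between E14 and E12 in TC+AC (vertical axis) against that in TC (horizontal axis) for 7805 genes, 1 array for each tissue and stage; dotted lines mark 2-fold. Matrix proteins lie to the upper right, glycosaminoglycan enzymes spread to the right near 0 in TC+AC, and respiratory chain and muscle genes spread to the left.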

How the data were processed

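The deposited table held linear intensities of Affymetrix chicken probe sets, 1 value per probe set and array, with the authors' summary method, background correction and scaling not given in the sources used here. Median deposited intensities were 20.6 (TC E12), 23.1 (TC E14), 22.7 (TC+AC E12) and 13.1 (TC+AC E14), and the number of arrays limits the precision. After leaving out 96 control probe sets, 38439 were quantile normalized over the 4 arrays, floored at the 20th percentile and taken to log2 (Python 3.11.15, numpy 2.4.6, pandas 2.3.3, matplotlib 3.10.9). Of 38535 probe sets, 27178 had 1 gene symbol in the platform annotation, 177 several and 11180 none. The brightest probe set stood for each of 13009 genes, and the dimmest 40% of genes were left out. Intensities in the text are normalized.

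Background was the 95th percentile of 541 virus probe sets on each array: 18.9 in TC at E12 and 15.6 at E14. Where 1 side lay below it, "at least" folds use the background for that side, while counts and medians use the measured values; 7698 genes were measured on both TC arrays, 104 on 1 and 3 on neither. Of 1131 list entries, 927 matched by symbol, 34 by synonym and 170 not at all. Some synonyms lead to a different symbol (PTH1R to PTH2R, PKM to PKLR, PGK1 to PGK2, OSR1 to OSER1), the last of them for an entry of the joint list. KRT13 in the epidermal list was also reached through a synonym. The comparison, its 33 lists and its rules were chosen with earlier results of these data known. Named genes are the 15 highest and 15 lowest measured on both TC arrays, the 8 widest bounds each way, up to 4 members furthest from 0 in each direction in a list, and fixed marker genes; further list members were named after their values were seen. The steps were tested on simulated data, and 11 alternatives were tried. No coordinates are given, with the array's build not given in the sources used here.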

Additional observations from a re-analysis of the deposited data

Results flagged for a closer look

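Among the named genes above background on all 4 arrays, 6 were at least 2-fold higher at E14 in one tissue and at least 2-fold lower in the other. Across all 7805 genes compared, 42 were 2-fold higher in TC and 2-fold lower in TC+AC, and 45 the reverse. Most named genes were picked for wide differences in TC, so the 6 do not mark these genes out. Each value is the log2 difference between 1 array at E14 and 1 at E12, and the difference between the tissues was not tested. The chaperone HSPA5 gave 1.56 in TC and -1.11 in TC+AC, and the disulfide isomerase PDIA6 1.32 and -1.04. SMAD7, an inhibitor of TGF-beta and BMP signals, gave -1.26 in TC and 1.18 in TC+AC. The keratins KRT13 (-1.83 and 1.32) and KRT5 (-1.67 and 1.67) were lower in TC and higher in TC+AC at E14. So was the tight junction gene CLDN1 (-1.38 and 1.79). These keratins and CLDN1 are in the epidermal list, which KRT13 entered through a synonym match. The TC+AC values are those after quantile normalization; as deposited, the TC+AC difference of all genes had a median of -1.34.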

How the results depend on the processing

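With 1 array a group, no array could be left out, and no SE or test is possible. No paired analysis was possible because each group holds 1 array. Using the values as deposited, 0.533% of the genes 2-fold higher in TC were also higher in TC+AC and 73.2% of the lower ones also lower; after median centring the shares were 5.31% and 23.3%, and on the hybridization controls 0.468% and 66.1%. The controls gave 1708 higher and 366 lower genes and a nerve median of 0.61. With no filter on dim genes, 1412 were higher and 1993 lower, 16.5% of the higher ones were shared, and the medians were 0.093 (IGF, -0.56 as reported), -1.28 (muscle) and -0.087 (epidermis). With the dimmest 60% left out, 409 were higher, 6.78% of the lower genes were shared, and the medians were 0.25 (IGF), -2.83 (muscle) and -1.57 (epidermis). Keeping genes above background on both TC arrays gave a muscle median of -1.36. The mean over a gene's probe sets gave an epidermis median of -0.15 and turned LPXN (-0.58), XYLT1 (0.43) and CDCA3 (0.19). The second brightest probe set gave 476 lower genes, a shared share of 20.2% of them, and medians of 3.56 (cartilage collagens), 0.22 (WNT, reversed), 0.43 (cell cycle), 1.02 (cholesterol), 1.49 (joint), -0.72 (muscle) and -0.12 (endothelium). It reversed ACAN (-0.20), OIT3 (-1.18), PAPSS2 (-0.46), CR1 (-1.80), LPXN (-2.68), KRT24 (0.71), CALML3 (1.28), XYLT1 (0.12), HHIP (0.23), GLI2 (-0.54), RPS28 (0.91), RPS13 (-0.77) and SOX17 (0.98). The cause of these shifts was not tested. No named 2-fold gene turned under the other 9 alternatives. Read against the median of all genes under each scaling tried, the joint and ribosomal lists turned in sign, and no other list did. The joint list stood at 0.21 as reported and between -0.24 and -0.28 on every other scaling. The ribosomal list stood at 0.055 as reported and at -0.28 after median centring. Depth of signal over background limits dim genes: 36 of the genes compared lay below background in TC at E12 and 74 at E14.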

Other observations

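Of 3695 probe sets with no gene name above background on both TC arrays, 301 (8.15%) were at least 2-fold higher at E14 and 425 (11.5%) at least 2-fold lower, shares near or below those of the named genes (8.30% and 14.1%). They enter no list or count above.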
